A study of Mus musculus with 18 samples.

Results

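The transcription factors Tbx2, Tbx3, Tbx4, Tbx5, Tcf21, Foxf2, Meox2, Twist1, Prrx1 and Zeb1 of the lung mesenchyme were followed in lungs in which a gene had been deleted in the epithelium. These 10 genes were taken by their symbols from the 23420 genes listed in each table. RNA-seq had been performed on whole lungs of mouse embryos at 14.5 dpc (days post coitus). In the Rptor, Tfam and Cox10 lines, deficient lungs (Rptor f/f, Tfam f/f or Cox10 f/f, each with ShhCre/+) were compared with control lungs of their own line (Rptor f/+, Tfam f/+ or Cox10 f/+, each with ShhCre/+), so that the controls also carried Cre and 1 floxed allele. There were 3 samples in each of 6 groups, 18 in all. Rptor encodes a part of mTOR complex 1, Tfam encodes a factor that maintains mitochondrial DNA, and Cox10 encodes an enzyme required to assemble cytochrome c oxidase. Cre was expressed from the Shh locus, which is active in the lung epithelium, and the labels name no deletion in the mesenchyme.

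The mesenchyme of the embryonic lung surrounds the branching epithelium, exchanges secreted signals with it and gives rise to fibroblasts, airway and vascular smooth muscle, and cartilage. T-box factors such as Tbx2, Tbx3, Tbx4 and Tbx5 are expressed in this mesenchyme and are known for their part in branching and in mesenchymal proliferation. Tcf21 and Twist1 are basic helix-loop-helix factors that bind the E-box, Foxf2 is a forkhead factor, Meox2 and Prrx1 are homeodomain factors, and Zeb1 is a zinc finger factor known for repressing epithelial genes. In a whole lung, fewer cells of a type and less RNA per cell cannot be told apart.

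On GRCm38 (mm10), Tbx2 (ENSMUSG00000000093.6, chr11:85832551-85841948) and Tbx4 (ENSMUSG00000000094.12, chr11:85886422-85916097) were neighbours on the plus strand, 44.5 kb apart. Tbx3 (ENSMUSG00000018604.18, chr5:119670669-119684724) and Tbx5 (ENSMUSG00000018263.11, chr5:119832668-119885219) formed another such pair on the plus strand, 147.9 kb apart. Tcf21 (ENSMUSG00000045680.8) lay on the minus strand at chr10:22817281-22820174, and Prrx1 (ENSMUSG00000026586.16) on the minus strand at chr1:163245119-163313710. On the plus strand were Foxf2 (ENSMUSG00000038402.2, chr13:31625816-31631403), Meox2 (ENSMUSG00000036144.6, chr12:37108540-37179534) and Twist1 (ENSMUSG00000035799.6, chr12:33957671-33959829). Zeb1 is ENSMUSG00000024238.15. In the GENCODE annotation, genes on the opposite strand overlap exons of Tbx3 (Tbx3os1), Tcf21 (Gm10824), Foxf2 (the miRNA gene Gm27516), Prrx1 (Gm20471) and Zeb1 (Gm10125). Whether the counting used strand is not given in the sources used here, so that reads of these 5 genes and of their antisense partners could not be separated.

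Sequences before the start site were found in the RefSeq table (GRCm38.p6) for 6 of the 10 factors. The windows of Tcf21, Prrx1 and Foxf2 are shown because these genes had the changes described below. Each window holds the 250 bases before the start, written 5′ to 3′ on the strand of the gene, with the E-box CANNTG in capitals: Tcf21 at chr10:22820144-22820393 (minus strand), Prrx1 at chr1:163313651-163313900 (minus strand) and Foxf2 at chr13:31625566-31625815 (plus strand).
Tcf21: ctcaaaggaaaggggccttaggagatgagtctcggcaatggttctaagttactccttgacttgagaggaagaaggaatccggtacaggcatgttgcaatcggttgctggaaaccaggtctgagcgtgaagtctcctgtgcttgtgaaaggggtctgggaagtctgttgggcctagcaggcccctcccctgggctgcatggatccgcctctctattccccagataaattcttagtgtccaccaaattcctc
Prrx1: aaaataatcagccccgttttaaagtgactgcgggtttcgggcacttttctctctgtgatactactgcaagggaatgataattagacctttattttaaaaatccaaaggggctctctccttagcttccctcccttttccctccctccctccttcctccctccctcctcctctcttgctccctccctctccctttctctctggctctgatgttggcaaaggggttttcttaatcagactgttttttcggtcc
Foxf2: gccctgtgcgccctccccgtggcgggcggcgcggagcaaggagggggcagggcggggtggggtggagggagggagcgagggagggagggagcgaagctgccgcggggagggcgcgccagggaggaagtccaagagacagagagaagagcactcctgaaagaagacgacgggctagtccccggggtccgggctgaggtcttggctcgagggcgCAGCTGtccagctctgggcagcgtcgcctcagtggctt
The E-box reads the same in form on both strands, and 66.2% of 32817 promoter windows of this length held at least 1. No match to CANNTG was found in the windows of Tcf21, Prrx1 and Twist1. The windows of Foxf2 and Meox2 held 1 match each, and that of Tbx4 held 3. As GENCODE draws the genes, the window of Tbx4 lies wholly inside the gene, so that its 3 matches come after the start drawn there. The windows of Tcf21 and Prrx1 reach into their genes at the 3′ end. The T-box core AGGTGT, searched on both strands and present in 11.8% of windows, was found once, in the window of Twist1. The forkhead core TAAACA (12% of windows) and the form CACCTG of the E-box (17.2%) were found in none of the 6. The windows were 71.6% G and C in Foxf2, 52.4% in Tcf21 and 47.6% in Prrx1, with a median of 52.4% over all windows.

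Per sample, the deposited normalised reads (reads scaled by a size factor for each sample) summed to between 27730000 and 29610000. The targeted genes, counted over their whole length, did not pass the test in their own lines: Rptor had 2240 ± 52.0 (SD, n = 3) in controls and 2149 ± 254 in deficient lungs, Tfam had 1102 ± 72.5 and 1013 ± 85.1, and Cox10 had 797 ± 38.0 and 794 ± 44.7. These whole-lung totals do not show whether the floxed exons were lost in the epithelium. Of 13 epithelial marker genes, 12 were lower in Rptor-deficient lungs, 7 in Tfam-deficient lungs and 4 in Cox10-deficient lungs, beside 18.2%, 2.63% and 0.335% of all genes tested. None of the 13 was higher. The 6 broad mesenchymal markers were all above 0 in every sample, and their summed level was 203600 to 233400 normalised reads in Rptor controls. Cox10-deficient replicate 3 stood apart from its group: its 7 endothelial markers summed to 37402 normalised reads against 23488 and 25902 in the other deficient lungs, and its blood cell markers to 17528 against 4964 and 6387.

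To compare the factors with each other, reads were divided by the exon length of each gene. In control lungs Tbx2 was the highest of the 10 in every line, with 3286 ± 120 normalised reads per kb in Rptor controls, 4956 ± 344 in Tfam controls and 3707 ± 109 in Cox10 controls (SD, n = 3 each). Tbx4 followed with 2163 ± 10.7, 2336 ± 187 and 2034 ± 116. Twist1 was the lowest, with 16.5 ± 10.1, 64.8 ± 13.3 and 44.1 ± 27.0, and its values varied widely between lungs of a group. In controls of the Rptor line the order was Tbx2, Tbx4, Tcf21, Foxf2, Tbx5, Meox2, Tbx3, Zeb1, Prrx1 and Twist1, and the ranges of neighbours in this order did not overlap. In Tfam controls the ranges of Tbx5 and Tcf21 overlapped, as did those of Tbx3 and Meox2, and in Cox10 controls those of Prrx1 and Twist1. In Rptor-deficient lungs Tcf21 moved to the second place with 2685 ± 106 per kb, and Foxf2 moved from the fourth to the sixth with 650 ± 52.4, although its range there overlapped those of Meox2 and Tbx3. The tables were scaled separately. On these scales Tbx2 and Tbx5 were higher in controls of the Tfam line than in those of the other lines, with 17970 ± 1248 and 7436 ± 545 normalised reads against 11910 ± 436 and 4592 ± 210 in the Rptor line. This difference between lines was not tested.

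**Figure D1:**
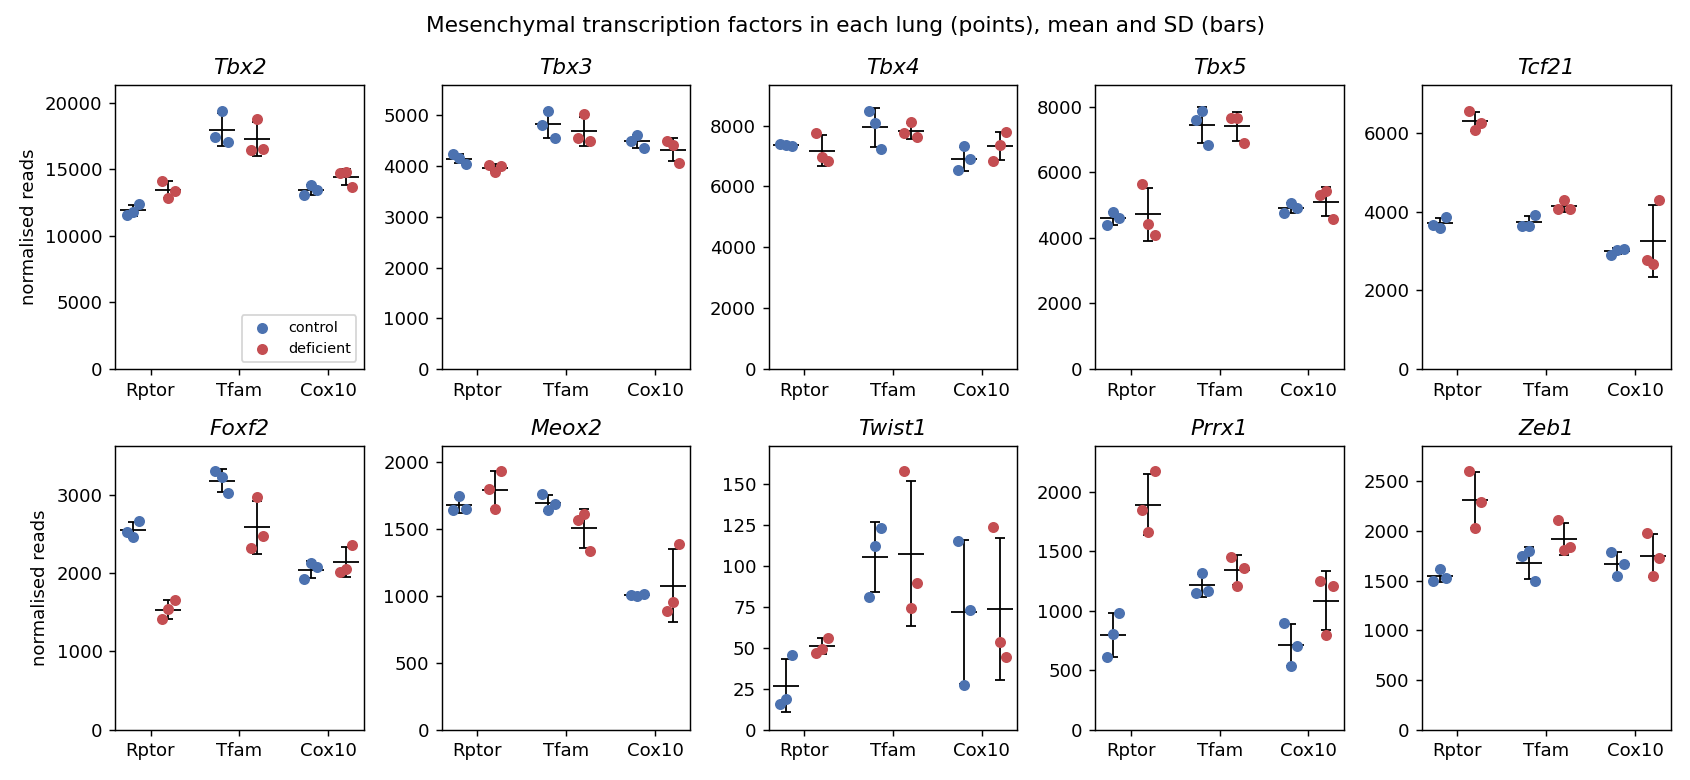
Normalised reads (y axis, from 0) of each factor in each of the 18 lungs, by line (x axis). Points are single lungs, horizontal bars means and vertical bars the SD of 3 lungs. In the Rptor line, on the scale of the tables, deficient lungs lie above controls without overlap for Tbx2, Tcf21, Twist1, Prrx1 and Zeb1 and below them for Tbx3 and Foxf2 (relative to mesenchymal markers Tcf21 is at 0.022, Zeb1 at -0.18 and Tbx2 at -0.57), and Cox10-deficient replicate 3 is high for Tcf21 and Meox2.

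To ask how the mesenchymal factors responded to loss of Rptor in the epithelium, deficient and control lungs of the Rptor line were compared in limma on log2(normalised reads + 1). On the scale of the tables Tcf21, Prrx1, Zeb1 and Tbx2 rose and Foxf2 fell, with adjusted p below 0.05, whereas relative to 6 mesenchymal markers Tcf21 (0.022) and Zeb1 (-0.18) did not pass and Tbx2 was lower (-0.57), as were 80.8% of all genes on that scale. Thus 5 of the 10 factors passed, beside 34.8% of all 14940 genes tested. For higher genes the numbers were 4 of 10 against 16.6%, and for lower genes 1 of 10 against 18.2%. The values of deficient and control lungs did not overlap for 7 of the 10 factors, and did not for 50.3% of all genes. The median log2 fold change was 0.13 over the factors and 0.0083 over all genes.

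Tcf21, a basic helix-loop-helix factor needed for lung mesenchyme and fibroblast formation, had 3655, 3592 and 3874 normalised reads in Rptor controls and 6577, 6086 and 6257 in deficient lungs. All deficient lungs were above all controls, and the gap between the groups was wider than the range within either. The log2 fold change was 0.77 (SE 0.055), a 1.70-fold rise (limma adjusted p = 6.1e-05), and relative to mesenchymal markers it was 0.022 (limma adjusted p = 0.771). In Tfam lungs the values were 3631, 3630 and 3933 in controls and 4070, 4300 and 4062 in deficient lungs, again without overlap but by a smaller step. The log2 fold change of 0.15 (SE 0.057) did not pass (limma adjusted p = 0.195). Among Cox10 lungs, Tcf21 had 2906, 3027 and 3056 in controls and 2787, 2678 and 4311 in deficient lungs. Here replicates 1 and 2 of the deficient lungs were below every control and replicate 3 was above. On the log2 scale the difference was 0.086 (95% interval -0.29 to 0.46) with all lungs and -0.13 without deficient replicate 3, and neither passed. The part of the endothelial and blood markers of that lung in this value was not tested.

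Foxf2, a forkhead factor of mesenchyme next to endoderm, moved in the opposite direction. It had 2522, 2468 and 2663 normalised reads in Rptor controls and 1410, 1537 and 1658 in deficient lungs. Every deficient lung was well below the lowest control. This was a log2 fold change of -0.73 (SE 0.071), and the deficient level was 0.601 times the control level (limma adjusted p = 0.000253). Relative to mesenchymal markers the change was -1.48, on a scale where the median of all genes was -0.74. Among Tfam lungs, Foxf2 had 3302, 3234 and 3024 in controls and 2326, 2973 and 2476 in deficient lungs, without overlap, although replicate 2 of the deficient lungs lay close to the lowest control. This log2 fold change of -0.30 (SE 0.085) did not pass (limma adjusted p = 0.0761), and it did pass without deficient replicate 2, with -0.41 (limma adjusted p = 0.0150). It also passed relative to mesenchymal markers (-0.45, limma adjusted p = 0.00697), with Xist as a covariate (limma adjusted p = 0.0474) and with the replicate block (limma adjusted p = 0.0479). In the Cox10 line Foxf2 had 1933, 2136 and 2076 in controls and 2018, 2061 and 2368 in deficient lungs, and the groups overlapped. The log2 fold change was 0.067 (95% interval -0.10 to 0.24).

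Prrx1, a homeodomain factor of embryonic connective tissue, had the largest log2 fold change of the 10 in the Rptor line on the scale of the tables. Relative to mesenchymal markers it was 0.52 and that of Foxf2 was larger in size (-1.48), on a scale where the median of all genes was -0.74. Prrx1 had 612, 804 and 981 normalised reads in Rptor controls and 1844, 1666 and 2172 in deficient lungs. Controls spread over a wide range, and all deficient lungs were still above the highest of them. On the log2 scale the difference was 1.26 (SE 0.16), a 2.40-fold rise (limma adjusted p = 0.000878). Among Cox10 lungs, the values were 895, 538 and 704 in controls and 1248, 798 and 1205 in deficient lungs. Only replicate 2 of the deficient lungs fell within the control range there. This was a log2 fold change of 0.61 (SE 0.22) and did not pass (limma adjusted p = 0.332, and 0.168 to 0.772 when single lungs were left out). It passed with the replicate block (limma adjusted p = 0.0497), beside 48 of 14937 genes. Among Tfam lungs, Prrx1 had 1151, 1322 and 1167 in controls and 1455, 1211 and 1361 in deficient lungs, with overlap and a log2 fold change of 0.14 (95% interval -0.038 to 0.33).

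Zeb1, a zinc finger factor known for repressing epithelial genes, had 1501, 1617 and 1528 normalised reads in Rptor controls and 2598, 2033 and 2291 in deficient lungs. The groups did not overlap. The log2 fold change was 0.57 (SE 0.089), a 1.48-fold rise (limma adjusted p = 0.00199), and relative to mesenchymal markers it was -0.18 (limma adjusted p = 0.0984). Among Tfam lungs, Zeb1 had 1743, 1796 and 1494 in controls and 2107, 1812 and 1841 in deficient lungs. All deficient lungs were above all controls, but replicate 2 only by a small margin, and the log2 fold change of 0.20 (SE 0.084) did not pass (limma adjusted p = 0.260). In the Cox10 line the values overlapped, with 1792, 1542 and 1664 in controls and 1981, 1546 and 1727 in deficient lungs. On the log2 scale the difference was 0.067 (95% interval -0.16 to 0.29).

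On the scale of the tables Tbx2 was the only T-box factor among the 10 that passed in any line. It had 11553, 11793 and 12399 normalised reads in Rptor controls and 14140, 12863 and 13378 in deficient lungs, without overlap. This was a log2 fold change of 0.18 (SE 0.056), a 1.13-fold rise (limma adjusted p = 0.0403). Relative to mesenchymal markers Tbx2 was lower (-0.57, limma adjusted p = 7.55e-06), as were 80.8% of all genes, with a median of -0.74. The call on the scale of the tables was lost in 5 of the 6 fits that each left out a lung (limma adjusted p 0.0568 to 0.131 without control replicates 1, 2 or 3 or deficient replicates 1 or 3, 0.0424 without deficient replicate 2). It was also lost without the filter on low values (limma adjusted p = 0.0532) and with the level of Xist as a covariate for sex (limma adjusted p = 0.0634). In the Tfam line Tbx2 had 17445, 19400 and 17070 in controls and 16470, 18750 and 16560 in deficient lungs. Among Cox10 lungs, it had 13040, 13830 and 13460 in controls and 14750, 14790 and 13700 in deficient lungs. In both lines the groups overlapped, and the 95% intervals of the log2 fold change were -0.23 to 0.11 and -0.024 to 0.22.

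Tbx3, Tbx4 and Tbx5 did not pass in any line on the scale of the tables, whereas relative to mesenchymal markers all of them were lower in the Rptor line (-0.81, -0.78 and -0.72, limma adjusted p between 1.81e-06 and 3.05e-05), as were 80.8% of all genes, with a median of -0.74. Tbx3 had 4230, 4161 and 4047 normalised reads in Rptor controls and 4026, 3892 and 3998 in deficient lungs. All deficient lungs were below all controls, by a gap smaller than the range within either group (log2 fold change -0.062, 95% interval -0.17 to 0.048). Tbx4, known for its expression in lung and hindlimb mesenchyme, had 7389, 7367 and 7318 in Rptor controls and 7749, 6960 and 6834 in deficient lungs. The deficient lungs lay on both sides of the controls (log2 fold change -0.037, 95% interval -0.17 to 0.097). Tbx5, its counterpart in the forelimb and a factor of the heart as well, had 4377, 4796 and 4601 in Rptor controls and 5630, 4409 and 4099 in deficient lungs, where replicate 1 was high and replicate 3 low (log2 fold change 0.025, 95% interval -0.22 to 0.27). For the 4 T-box factors together, the log2 fold changes lay between -0.059 and -0.0058 after loss of Tfam and between -0.055 and 0.10 after loss of Cox10, and the 95% intervals in these lines lay between -0.225 and 0.233.

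Meox2, a homeodomain factor of mesoderm and vessels, did not pass in any line on the scale of the tables. Relative to mesenchymal markers it was lower in the Rptor line (-0.65, limma adjusted p = 3.41e-05), as were 80.8% of all genes, with a median of -0.74. It had 1640, 1747 and 1649 normalised reads in Rptor controls and 1796, 1649 and 1929 in deficient lungs, which overlapped (log2 fold change 0.091, 95% interval -0.070 to 0.25). Among Tfam lungs, it had 1759, 1641 and 1687 in controls and 1565, 1610 and 1336 in deficient lungs, all of them below the controls. The log2 fold change of -0.18 (SE 0.076) did not pass (limma adjusted p = 0.259). In the Cox10 line the controls lay close together at 1006, 999.6 and 1012, while the deficient lungs had 888, 951 and 1386. As for Tcf21, replicates 1 and 2 were below every control and replicate 3 was above, and the log2 fold change turned from 0.067 to -0.13 without replicate 3.

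Twist1, a basic helix-loop-helix factor of mesoderm, had few reads in all lungs. It had 16.0, 19.0 and 45.8 normalised reads in Rptor controls and 46.9, 49.5 and 56.3 in deficient lungs. Control replicate 3 nearly reached the deficient lungs. The log2 fold change was 1.04 (SE 0.37) and missed the threshold (limma adjusted p = 0.0555). It passed without control replicate 3 (1.49, limma adjusted p = 0.00610) and with the replicate numbers as a block (limma adjusted p = 0.0245). Among Tfam lungs, it had 81.3, 112 and 123 in controls and 158, 74.5 and 89.9 in deficient lungs. Among Cox10 lungs, it had 115, 27.2 and 73.0 in controls and 124, 53.3 and 44.5 in deficient lungs, and in both lines the groups overlapped over most of their range. The 95% interval of the log2 fold change was -1.17 to 1.40 in the Cox10 line, so that a change of 2-fold in either direction lay within it.

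**Figure D2:**
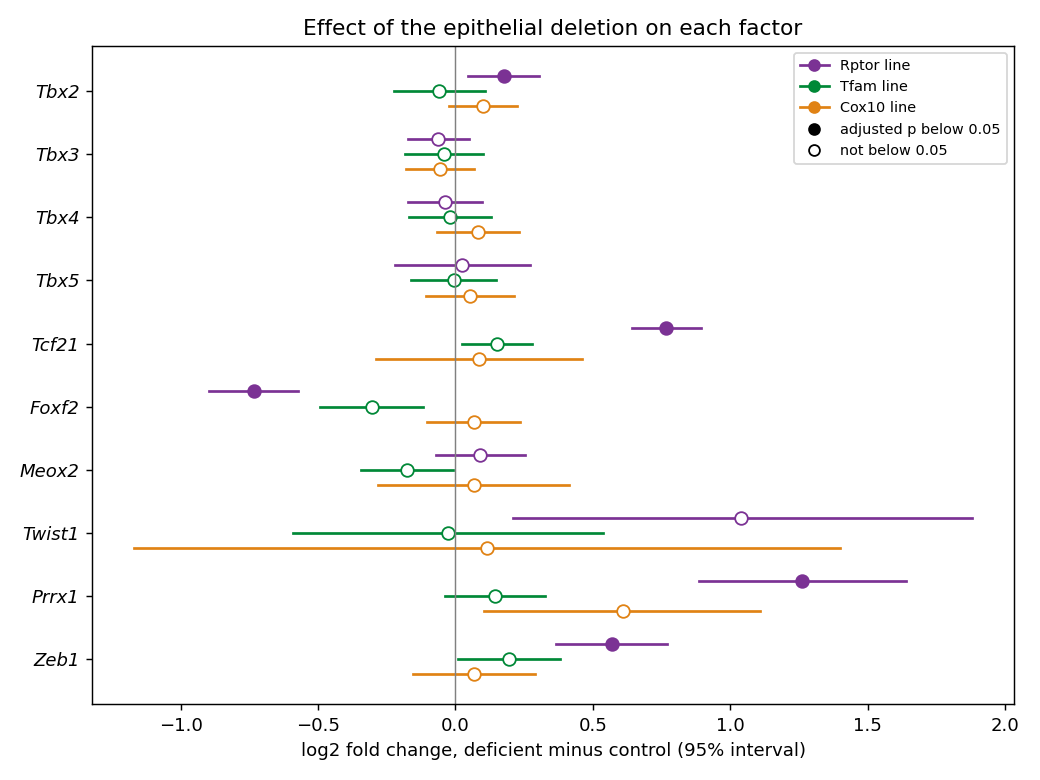
Log2 fold change (x axis, deficient minus control) of each factor with its 95% interval, by line. Filled points have a limma adjusted p below 0.05: Tcf21, Prrx1, Zeb1, Tbx2 and Foxf2 in the Rptor line, and none in the other lines. Relative to mesenchymal markers, Tbx2, Tbx5, Meox2 and Zeb1 change sign in the Rptor line and Tcf21 does not pass.

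None of the 10 factors passed in limma in the Tfam line, beside 4.66% of 15053 genes (2.03% higher and 2.63% lower). Before adjustment, p was below 0.05 for 4 factors, Foxf2, Tcf21, Meox2 and Zeb1, and for 2618 genes. These 4 were also the factors whose groups did not overlap, which held for 22.8% of all genes. In the Cox10 line none of the 10 passed either, beside 0.475% of 14937 genes (0.141% higher and 0.335% lower). Before adjustment, p was below 0.05 for 1 factor, Prrx1, and for 1945 genes. The groups overlapped for all 10 factors in the Cox10 line, and did not overlap for 21.3% of genes. The median log2 fold change of the factors was -0.023 after loss of Tfam and 0.075 after loss of Cox10, against 0.00098 and 0.0014 over all genes.

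To ask whether the effects differed between lines, all 18 lungs were fitted together in limma, with 14550 genes tested in every line. The mean of the 3 line effects passed for 4 of the 10 factors, beside 37.1% of genes. It was 0.67 (SE 0.11) for Prrx1, 0.33 (SE 0.067) for Tcf21, 0.28 (SE 0.058) for Zeb1 and -0.32 (SE 0.049) for Foxf2, with adjusted p between 8.36e-05 and 0.00138, and these calls held in all 18 fits that each left out a lung. Each mean took most from the Rptor line: the Rptor, Tfam and Cox10 effects were 1.26, 0.14 and 0.61 for Prrx1 and 0.77, 0.15 and 0.086 for Tcf21. They were 0.57, 0.20 and 0.067 for Zeb1 and -0.73, -0.30 and 0.067 for Foxf2. On the scale of the tables, with all samples and without block or covariate, none of these factors passed in the Tfam or Cox10 line. Relative to mesenchymal markers the mean effects of Tcf21 (-0.044) and Zeb1 (-0.10) turned below 0 and did not pass (limma adjusted p = 0.518 and 0.141). The effect of Rptor loss minus that of Tfam loss passed for 3 factors, beside 11.2% of genes: 0.61 (SE 0.16) for Tcf21, 1.12 (SE 0.27) for Prrx1 and -0.43 (SE 0.12) for Foxf2 (limma adjusted p = 0.0233, 0.0139 and 0.0297). Tcf21 lost this call without Rptor control replicate 2 or Tfam deficient replicate 3 (limma adjusted p = 0.0556 and 0.0573). Foxf2 lost it in 4 of the 18 fits, without Rptor control replicate 3, Rptor deficient replicate 1, Tfam control replicate 2 or Tfam deficient replicate 2 (limma adjusted p between 0.0589 and 0.0757). The effect of Rptor loss minus that of Cox10 loss passed for 3 factors, beside 7.48% of genes: 0.68 (SE 0.16) for Tcf21, -0.80 (SE 0.12) for Foxf2 and 0.50 (SE 0.14) for Zeb1 (limma adjusted p = 0.0165, 0.000605 and 0.0396). For Zeb1 this call was lost in 8 of the 18 fits (limma adjusted p between 0.0579 and 0.110), without Rptor control replicates 1, 2 or 3, Rptor deficient replicates 1 or 3, Cox10 control replicates 1 or 3, or Cox10 deficient replicate 2. With the replicate number of each line as a block, Tbx2 and Zeb1 also passed for Rptor minus Tfam (limma adjusted p = 0.0479 and 0.0464) and Prrx1 for Rptor minus Cox10 (limma adjusted p = 0.0202), while the genes called rose from 1626 to 2318 and from 1089 to 1456 of 14550. No factor differed between the effects of Tfam and Cox10 loss in limma, beside 0.055% of genes. In that contrast p was below 0.05 before adjustment for 1 factor, Foxf2, and for 664 genes.

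The scaling of a table sets what a change is relative to. In the Rptor line all 6 broad mesenchymal markers (Pdgfra, Pdgfrb, Col1a1, Col1a2, Col3a1 and Vim) rose, with a mean log2 change of 0.75, and epithelial markers fell in the same lungs. The changes were uneven: 0.25 for Vim, 0.36 for Pdgfrb, 0.69 for Pdgfra, 0.95 for Col3a1, 1.08 for Col1a2 and 1.14 for Col1a1. Relative to their own mean, 3 of the 6 markers were higher and 2 lower, so values on this scale depend on the markers used. The summed level of the 6 markers was 399200 to 426500 normalised reads in deficient lungs against 203600 to 233400 in controls. When the mean log2 level of these 6 genes was subtracted in each lung, 6 factors were lower in Rptor-deficient lungs: Foxf2 (-1.48), Tbx3 (-0.81), Tbx4 (-0.78), Tbx5 (-0.72), Meox2 (-0.65) and Tbx2 (-0.57). Prrx1 was still higher (0.52, SE 0.14, limma adjusted p = 0.00489). Tcf21 (0.022), Zeb1 (-0.18) and Twist1 (0.30) did not pass on this scale. It moved the median of all genes to -0.74, and 80.8% of all genes were then lower and 1.69% higher, so the lower values of the T-box factors have to be read against that shift. Among Tfam lungs, the markers shifted by 0.14, and Foxf2 passed on their scale (-0.45, limma adjusted p = 0.00697), beside 5.1% of all genes lower and 0.97% higher. Among Cox10 lungs, the markers shifted by 0.25 and no factor passed, beside 1.35% of all genes lower and 0.0736% higher. There 8 of the 10 factors changed sign from above to below 0, and the median of all genes moved to -0.25.

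**Figure D3:**
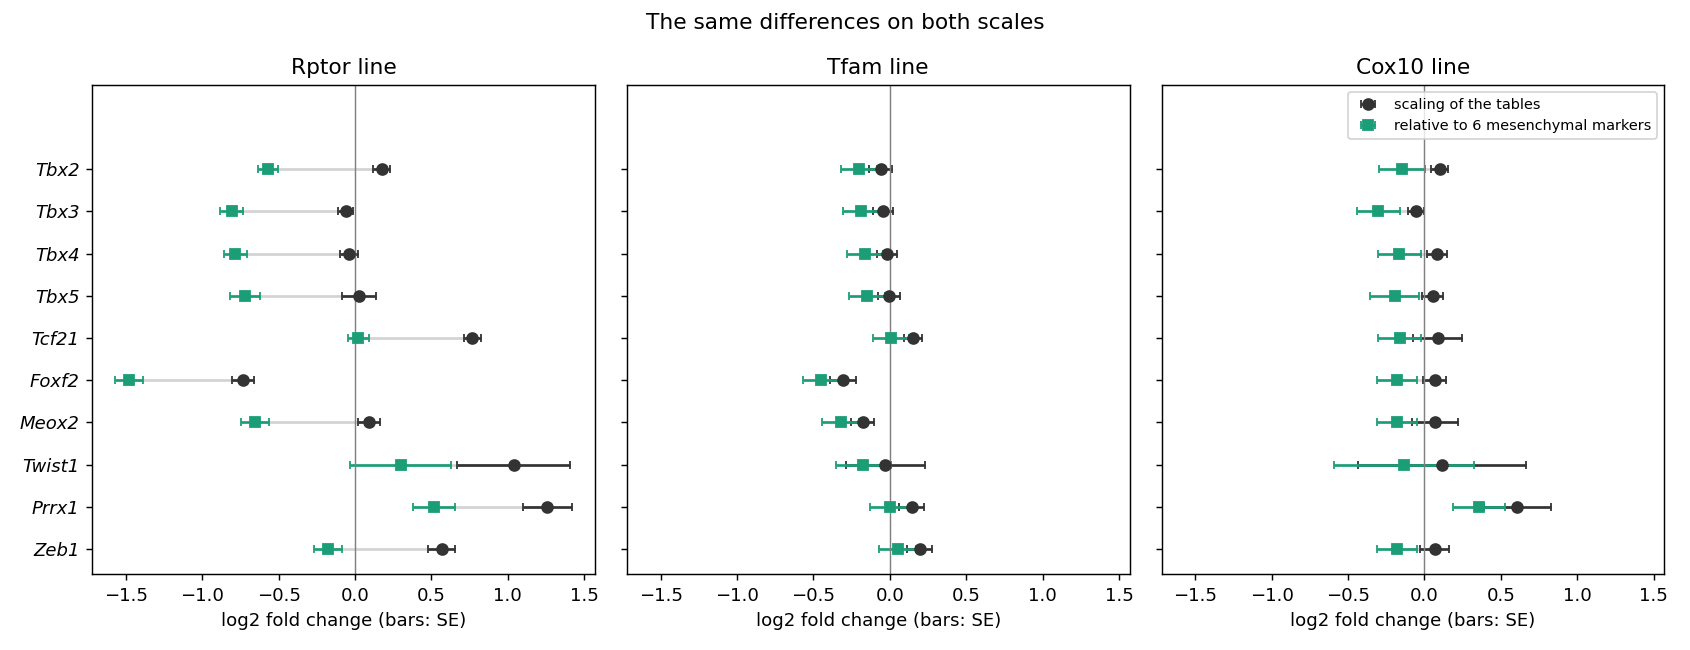
Log2 fold change (x axis) of each factor in each line, on the scale of the tables (circles) and relative to the mean log2 level of 6 broad mesenchymal markers (squares), with SE as bars. In the Rptor line the squares lie 0.75 to the left of the circles, so that Tcf21 moves to 0.022 and Tbx2, Tbx5, Meox2 and Zeb1 change sign, while Prrx1 moves from 1.26 to 0.52 and Foxf2 from -0.73 to -1.48.

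Other transcription factors of the mesenchyme were read in the same way. Of 23 such genes tested in the Rptor line, 7 were higher and 2 lower, beside 16.6% and 18.2% of all genes, with a median log2 fold change of 0.34 beside 0.0083. Relative to the mesenchymal markers none was higher and 15 were lower, beside 1.69% and 80.8% of all genes. Among the higher ones were Osr1 (0.83, limma adjusted p = 0.00275), a zinc finger factor, and Prrx2 (0.69, limma adjusted p = 0.00205), the close relative of Prrx1. The lower ones were Tbx1 and Lef1, of which Lef1 (-0.67, limma adjusted p = 0.000185), a factor acting in Wnt signalling, was named after its value was seen. After loss of Tfam, 1 of 24 was higher, Meox1 (0.32, limma adjusted p = 0.0232, and 0.414 relative to the mesenchymal markers), also named after its value was seen, and Tbx1 and Ebf3 (-1.03, limma adjusted p = 0.00963) were lower. Meox1 was also higher in the Rptor line (0.44, limma adjusted p = 0.00795), where it was lower relative to the mesenchymal markers (-0.30, limma adjusted p = 0.0238), and had 0.47 in the Cox10 line (limma adjusted p = 0.0542). After loss of Cox10, 1 of 24 passed, Tbx1. Tbx1, a T-box factor outside the 10, is listed among these genes but is known in the embryonic lung from the epithelium. It was lower in all 3 lines, and also relative to the mesenchymal markers (-2.39, -1.0 and -1.38). Its level was 464 ± 66.7 normalised reads in controls of the Rptor line against 149 ± 29.9 after the deletion (SD, n = 3 each). It was 710 ± 50.9 in Tfam controls against 392 ± 29.7 in deficient lungs, and 538 ± 68.5 in Cox10 controls against 249 ± 57.7. These differences were -1.64, -0.86 and -1.13 on the log2 scale (limma adjusted p = 0.000286, 0.000267 and 0.0492), and in each line every deficient lung was below every control. With sample totals as the scale the value in the Cox10 line did not pass (-1.12, limma adjusted p = 0.0556). Foxa1, an epithelial marker, was lower in the same lungs (log2 fold changes -1.79, -0.65 and -0.66). It changed more than the median of the 13 epithelial markers (-0.98, -0.29 and -0.43), of which 0, 2 and 1 were above 0. The part of the epithelium in the values of Tbx1 was not tested.

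Signals and genes linked to T-box factors in the lung were listed next to them. Of these 10 genes, 5 were higher in the Rptor line and none lower (median log2 fold change 0.27), beside 16.6% and 18.2% of all genes, 2 were higher after loss of Tfam (0.36), beside 2.03%, and none passed after loss of Cox10 (0.049). Relative to the mesenchymal markers 1 was higher and 5 were lower in the Rptor line and the median was -0.47, beside 1.69% and 80.8% of all genes and their median of -0.74, and after loss of Cox10 it was -0.20. Fgf10, the mesenchymal growth factor that draws out epithelial buds, had 1454 ± 192 normalised reads in controls of the Rptor line against 5310 ± 601 after the deletion (SD, n = 3 each). Its level in Tfam lungs was 1310 ± 34.7 in controls and 2511 ± 233 in deficient lungs. It rose by 1.87 and 0.93 on the log2 scale (limma adjusted p = 2.51e-05 and 3.82e-05), and in the Cox10 line it was 1.00 (limma adjusted p = 0.0525) without overlap of the groups. Bmp4, a signal of distal buds and mesenchyme, rose by 0.63 after loss of Rptor and 0.61 after loss of Tfam (limma adjusted p = 0.000493 and 0.000207), and had 0.47 in the Cox10 line (limma adjusted p = 0.0960). Wnt2b, Shisa3 and Cdkn1b were higher in the Rptor line, with 0.93, 1.13 and 0.28 on the scale of the tables, and did not pass in the other lines. Wnt2 (-0.18), Cdkn1a (0.27), Frzb (0.16), Il33 (0.19) and Ccn4 (0.24) did not pass in the Rptor line. Relative to the mesenchymal markers, Fgf10 was higher in all 3 lines (1.13, 0.79 and 0.75), while Bmp4 (-0.11), Wnt2b (0.18) and Shisa3 (0.39) did not pass and Cdkn1b (-0.47) was lower in the Rptor line.

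The markers of other lung cells moved with the genotype in the same samples, beside 16.6% of all genes higher and 18.2% lower after loss of Rptor, 2.03% and 2.63% after loss of Tfam, and 0.141% and 0.335% after loss of Cox10. Smooth muscle markers, which the mesenchyme also gives rise to, were lower for 6 of 8 genes and higher for 1 (Acta2, 0.47) in the Rptor line. They were lower for 6 of 8 after loss of Tfam and for 1 of 8 after loss of Cox10 (Myocd, -1.31). Relative to the mesenchymal markers none was higher and 7 were lower in the Rptor line. Of 12 further fibroblast markers, 10 were higher in the Rptor line, among them Lum (1.92) and Dcn (1.44). Lum was also higher (0.64) and Wnt5a lower (-0.45) in the Tfam line, and none passed in the Cox10 line. On the mesenchymal scale 2 of the 12 were higher and 5 lower in the Rptor line. Endothelial markers were higher for 6 of 7 genes in the Rptor line, mesothelial markers for 4 of 5 and macrophage markers for 5 of 5, whereas relative to the mesenchymal markers 6 endothelial, 1 mesothelial and 1 macrophage marker were lower and 2 mesothelial markers higher, on a scale where 80.8% of all genes were lower and 1.69% higher. None of these 3 lists had a call in the other lines. Among 4 cartilage markers tested, Col2a1, Col9a1 and Col11a2 were lower after loss of Rptor, Col2a1 and Col11a2 after loss of Tfam, and Col11a2 after loss of Cox10. No neural, glial or blood cell marker passed in any line, and among heart muscle markers Myh7 was higher after loss of Rptor (1.35) and Nppa after loss of Tfam (2.29). Genes named here because they alone passed in a list were named after their values were seen. Hba-a2, a blood marker, was listed at 0 in every lung. The summed level of heart muscle markers ranged from 406 to 13300 normalised reads over single lungs. The part of these other cells in the values of the 10 factors was not tested.

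**Figure D4:**
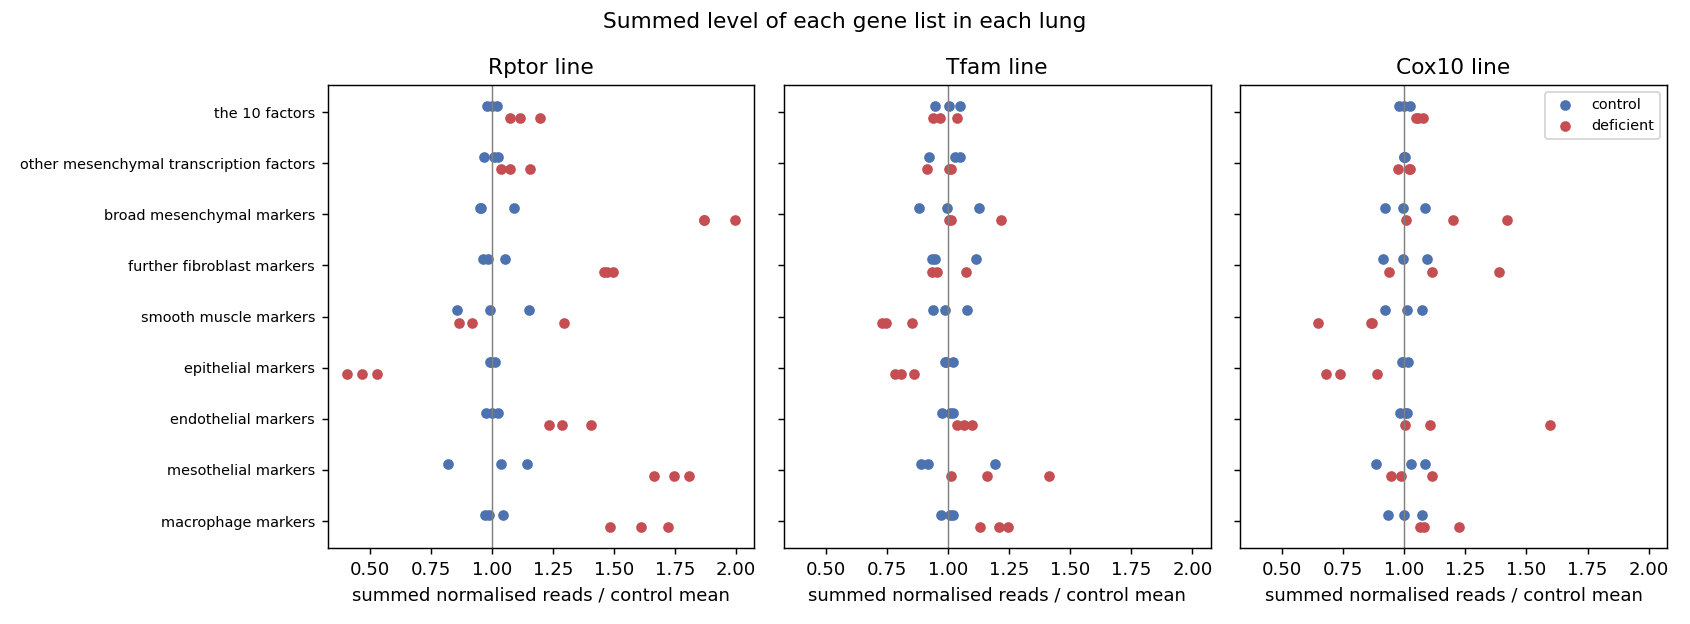
Summed normalised reads of each gene list in each lung, divided by the mean of the 3 controls of the line (x axis), for controls (blue) and deficient lungs (red). In the Rptor line the broad mesenchymal markers sum to 399200 to 426500 normalised reads in deficient lungs against 203600 to 233400 in controls, and the 10 factors to 41140 to 45820 against 37500 to 39110. Cox10-deficient replicate 3 is the lung to the far right among endothelial markers.

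Genes with a pattern like that of each factor were sought among 12577 genes with a mean of at least 50 in every table, by the root mean square difference of 18 log2 values, each relative to the controls of its table. The nearest to Tcf21 was Sparcl1 (0.082), with a log2 fold change of 0.75 after loss of Rptor, 0.15 after loss of Tfam and 0.26 after loss of Cox10, followed by Bmf (0.085). The nearest to Foxf2 was Igfbp2 (0.12) with -0.76, -0.19 and 0.016, followed by Grb7 (0.12). Prrx1 was nearest to Phactr1 (0.14) with 1.12, 0.29 and 0.65. Zeb1 was nearest to Sipa1l2 (0.085) and Pdzrn3 (0.090), and Meox2 to Tmbim1 (0.081) and Jup (0.087). The T-box factors were nearest to genes that did not pass in any line, with distances of 0.038 to 0.055: Gfra4 and Sepn1 for Tbx2, Lrrc41 and Adnp for Tbx3, Dmtf1 and Inpp5b for Tbx4, and Eif4g3 and Mta1 for Tbx5. Twist1 had too few reads for this search. Likeness of pattern was used as a description only.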

How the data were processed

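RNA-seq was performed by the authors on whole lungs at 14.5 dpc. Their methods give TRIzol with a Qiagen column and a BGI sequencer, whereas the labels give the column and Illumina libraries. The submitters' processing notes name mm10, Trim Galore, HISAT2, featureCounts and DESeq2, without versions. Per line, the authors deposited a normalised signal, which is the reads of a gene scaled by the size factor of its sample. All values were whole multiples of a step (tolerance 0.01). Their own fold changes and p-values were not used.

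Values were analysed here as log2(value + 1), which understates changes of genes with low values, in limma 3.58.1 (R 4.3.3; lmFit, eBayes with trend). Genes with a value of at least 10 in at least 3 of 6 samples were tested, separately in each line. P-values are two-sided and adjusted by Benjamini-Hochberg over all genes tested, with a threshold of 0.05. Groups and replicate numbers came from sample titles, and p-values measure the spread between these samples. The authors' methods say that mutants of several litters were combined, and the litter of each sample is not given in the sources used here. Deviations of same-numbered samples from their group means had correlations of 0.221, 0.330 and 0.259 in the Rptor line. The correlations were 0.447, 0.202 and 0.0488 in the Cox10 line and -0.312, -0.207 and 0.151 in the Tfam line. Samples of different numbers were not compared, so whether the numbers mark pairs was not tested. An alternative fit blocked the replicate numbers in every line, and values are printed without the block unless stated. The chi-square per gene between replicates (3.96 to 30.2) showed no library deposited under 2 names.

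The factors and gene lists were chosen with earlier results of these data known. Named genes were the 10 factors, the targeted genes, all genes of the T-box-linked list, up to 4 called genes per other list by size of change, and the 2 genes most like each factor, of which 1 is not reported here. Alternatives were other scalings, filters and pseudocounts, the replicate block, the level of Xist, a fit of all 18 samples and leaving out each sample. The method was tested on simulated data.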

Additional observations from a re-analysis of the deposited data

Results flagged for a closer look

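The effect of the epithelial deletion differed between lines for 4 of the 10 factors in at least 1 contrast of lines in limma over all 18 lungs, beside 13.1% of all genes tested. With the replicate block Tbx2 was added, while the genes called rose from 1626 to 2318 (Rptor minus Tfam) and from 1089 to 1456 (Rptor minus Cox10) of 14550. Between Rptor and Tfam loss, the log2 effect of Tcf21 differed by 0.61 (adjusted p = 0.0233), that of Prrx1 by 1.12 (adjusted p = 0.0139) and that of Foxf2 by -0.43 (adjusted p = 0.0297). Between Rptor and Cox10 loss, that of Tcf21 differed by 0.68 (adjusted p = 0.0165), that of Foxf2 by -0.80 (adjusted p = 0.000605) and that of Zeb1 by 0.50 (adjusted p = 0.0396). In each case the larger effect was that of Rptor loss. The calls for Tcf21 and Foxf2 against Tfam and for Zeb1 against Cox10 were lost when single lungs were left out, as given above. Relative to mesenchymal markers the differences of Tcf21 were 0.013 and 0.18 and that of Zeb1 against Cox10 was 0.0041, and none of these 3 passed, while those of Foxf2 and Prrx1 passed. On that scale 9971 of 14550 genes passed for Rptor minus Tfam and 8766 for Rptor minus Cox10. Of these, 9910 and 8652 were lower, as Foxf2 was.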

How the results depend on the processing

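In the Rptor line Tcf21, Foxf2, Prrx1 and Zeb1 kept their calls under every alternative except the scaling to mesenchymal markers, where Tcf21 and Zeb1 did not pass. That scaling gave -0.57 for Tbx2, -0.72 for Tbx5, -0.65 for Meox2 and -0.18 for Zeb1, all above 0 on the scale of the tables with all samples and no covariate. In Cox10 lungs it gave -0.15 for Tbx2, -0.165 for Tbx4, -0.195 for Tbx5, -0.16 for Tcf21, -0.18 for Foxf2, -0.18 for Meox2, -0.13 for Twist1 and -0.18 for Zeb1. For the mean of the 3 lines it gave -0.044 for Tcf21 and -0.10 for Zeb1. This scaling called 12318 of 14940 genes for Rptor loss and 212 of 14937 for Cox10 loss. For Tfam loss it called 914 of 15053 genes and 1 factor. Of 14550 genes it called 11763 for the mean effect (and 7 of the 10 factors), 9971 for Rptor minus Tfam (6 factors) and 8766 for Rptor minus Cox10 (6 factors). Most of these genes were lower (11523, 9910 and 8652). For Tfam minus Cox10 it called 4 genes. In 1 fit of all 18 samples, 399 genes passed for Tfam and 327 for Cox10 loss. Scaling to sample totals gave 0.0047 for Tbx5 in Tfam lungs. With Xist, Tbx5 was -0.025 in Rptor and 0.013 in Tfam lungs, and Twist1 was 0.11 in Tfam lungs. With this covariate 1 factor passed for Tfam loss (Foxf2, limma adjusted p = 0.0474), beside 853 of 15053 genes, and 117 of 14937 genes passed for Cox10 loss. The cause of these changes was not tested.

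When each sample was left out in turn, the genes called for Tfam loss ranged from 354 (without deficient replicate 3) to 1114 (without control replicate 3), and were 357, 441 and 418 without control replicate 1, deficient replicate 1 or 2. Factors called there ranged from 0 to 1. For Cox10 loss the genes ranged from 3 (without control replicate 1 or 3) to 255 (without deficient replicate 3), and were 5 and 32 without control or deficient replicate 2. For the differences between effects they were 852 to 2389 (Rptor minus Tfam, fewest without Tfam control replicate 2), 678 to 1814 (Rptor minus Cox10, most without Cox10 deficient replicate 3) and 2 to 10 (Tfam minus Cox10). Values that changed sign had these ranges: -0.11 to 0.12 for Tbx5 in Rptor lungs; -0.084 to 0.031 for Tbx4, -0.066 to 0.045 for Tbx5 and -0.34 to 0.20 for Twist1 in Tfam lungs; -0.13 to 0.21 for Tcf21, -0.0051 to 0.11 for Foxf2, -0.13 to 0.19 for Meox2, -0.46 to 0.56 for Twist1 and -0.025 to 0.15 for Zeb1 in Cox10 lungs.

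With replicate numbers blocked (replicate block), the genes called for Rptor, Tfam and Cox10 loss were 5768, 802 and 48. The block gave calls to 1 factor for Tfam loss (Foxf2, limma adjusted p = 0.0479) and 1 for Cox10 loss (Prrx1, limma adjusted p = 0.0497), to 5 factors for Rptor minus Tfam (adding Tbx2 and Zeb1, limma adjusted p = 0.0479 and 0.0464, beside 2318 of 14550 genes) and to 5 genes for Tfam minus Cox10. Prrx1 then passed for Rptor minus Cox10 (limma adjusted p = 0.0202). It changed no other call of the factors than these and Twist1 for Rptor loss. The planned tests on whole reads were not run. The part of depth in the spread of Twist1, the factor with the lowest level, was not tested.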
